A study of Mus musculus with 384 samples.

Results

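The 9 genes described here encode transcription factors of the macrophage lineage, with Sox4 beside them: Spi1, Cebpa, Cebpb, Cebpd, Maf, Mef2c, Runx1, Sox4 and Prdm1. They were taken by name from a count table of 23481 genes, of which 16100 had at least 1 count. All 9 were found, Spi1 under its older symbol Sfpi1, and all 9 passed the filter on low counts. Sox4 was selected on its late levels in these data, which were known to be low, so its late values are a description with no test. Its earlier times, and the other 8 genes at all times, were tested in a model fitted to the whole table. All 9 were chosen with earlier results of these data known, so their shares of calls beside those of all genes are a description.

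Macrophages were grown from the marrow of male C57BL/6 mice aged 13 weeks, either Myd88 KO or WT, and all of them had been transduced with a virus pool of pathway reporters. Myd88 is the adaptor that carries the signal of most Toll-like receptors and of the interleukin-1 receptor. There were 384 wells, on 2 plates of 96 wells for each genotype, and each plate held 1 well for every combination of 12 ligands and 8 times from 0 to 4 h. Among the ligands, LPS is bacterial lipopolysaccharide, Pam3Cys a lipopeptide made after bacterial ones, CpG a DNA of bacterial type, R848 an imidazoquinoline, Zymosan a preparation of yeast cell wall and Poly(I:C) a synthetic double-stranded RNA. The labels' names are kept for HT-DNA, TDB, SeV, FLA, MDP and MDP/LPS. The comparison of genotypes asks which responses need Myd88. Whether the plates hold separate mice or cultures is not in the labels. The p-values therefore measure the spread between plates, pooled over all groups of both genotypes, and genotype cannot be told apart from plate. A WT plate left out thus also moves the p-values of KO changes.

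A macrophage keeps its identity through a small set of transcription factors. PU.1, the product of Spi1, and C/EBPα, the product of Cebpa, open the enhancers of the myeloid lineage, Runx1 acts before them in blood stem cells, and c-Maf and Mef2c act in mature cells. C/EBPβ and C/EBPδ, the products of Cebpb and Cebpd, are inducible relatives of C/EBPα that bind with NF-κB at inflammatory genes, Blimp-1, the product of Prdm1, is a repressor best known from plasma cells, and Sox4 is an SRY-related factor best known from lymphoid and other progenitors.

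Expression levels are CPM, the share of a sample's counts that a gene took, scaled to 1000000 counts, from libraries of transcript 3′ ends, and are given for plates 1 and 2. Counts were added up by plate, over all 12 wells at time 0 and, per ligand, over the early wells at 0.5 and 1 h, the middle wells at 1.5 and 2 h, and the late wells at 2.5, 3 and 4 h. A time 0 sum held from 3167670 to 4901235 counts and a late one from 314684 to 1876446, which makes levels at time 0 the more precise. Wells held 71720 to 767167 counts, and the R848 wells of KO plate 2 had a mean of 102253. Myd88 itself stood at 15.1 and 18.2 CPM over all wells of the KO plates and at 45.9 and 47.7 CPM in the WT plates, and late LPS wells held 12.4 and 6.77 CPM in KO against 82.0 and 80.9 CPM in WT. The 10 macrophage markers summed to 6220 and 6370 CPM at time 0 in KO and to 6830 and 6940 CPM in WT. Some markers of B cells (Pax5), T cells (Cd3g), dendritic cells (Flt3) and red cells (Hba-a1) had 0 counts in 384 wells. Others of these lists were detected, such as Xcr1 with 1163 counts, Siglech with 463, Cd79b with 370 and Lck with 231, and the 7 dendritic cell markers summed to 0 to 32.1 CPM in late KO sums and 7.84 to 33.1 CPM in late WT sums; their part in the results was not tested. The 4 mast cell and basophil markers summed to 0 CPM in all late sums, and 8 neutrophil markers summed to 77.6 to 258 CPM in late KO sums and 84.0 to 225 CPM in late WT sums. Of 6 stem and progenitor markers, Kit had 879 counts, Meis1 155, Cd34 142, Gata2 88, Myb 51 and Flt3 0. They summed to 3.09 to 25 CPM in late KO sums, 0 to 16 CPM in late WT sums and up to 36.2 CPM in middle KO sums, and their part was not tested. In such bulk samples fewer cells of a type and less RNA per cell cannot be told apart.

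In late wells no tested gene was called lower with some ligands and higher with others, but levels did move both ways. In KO, Cebpa was above both time 0 plates with 3 ligands and below both with 3. Cebpd and Prdm1 were each above with 2 ligands and below with 3 in KO. Leaving out the late values of Sox4, 96 pairs of gene and ligand were tested in late wells against time 0. Of these, 10 pairs fell and 4 rose in KO, where 0.593% of all gene and ligand pairs fell and 1.58% rose, and 12 pairs fell and 24 rose in WT, where 0.688% of all pairs fell and 2.09% rose (edgeR quasi-likelihood test, adjusted p under 0.05). The pairs that fell belonged to Mef2c, Maf, Cebpa and Runx1, and the pairs that rose belonged to Cebpb, Cebpd, Prdm1 and Spi1. By DESeq2 the counts were 11 and 4 in KO, where 0.896% of all pairs fell and 1.96% rose. They were 13 and 26 in WT, where 1.1% fell and 2.59% rose. The edgeR counts moved with the plates used. In WT few or no pairs passed without either WT plate, where the shares over all pairs were also lower. Calls were thus lost over the whole table. More pairs passed in WT without either KO plate, where the shares over all pairs were also higher. In KO the pairs that fell were 3 without either WT plate and 6 and 8 without KO replicate 1 and 2, and the pairs that rose were 2 without either WT plate. With 1 plate left in a genotype, that plate is assumed to vary like the remaining groups.

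**Figure D1:**
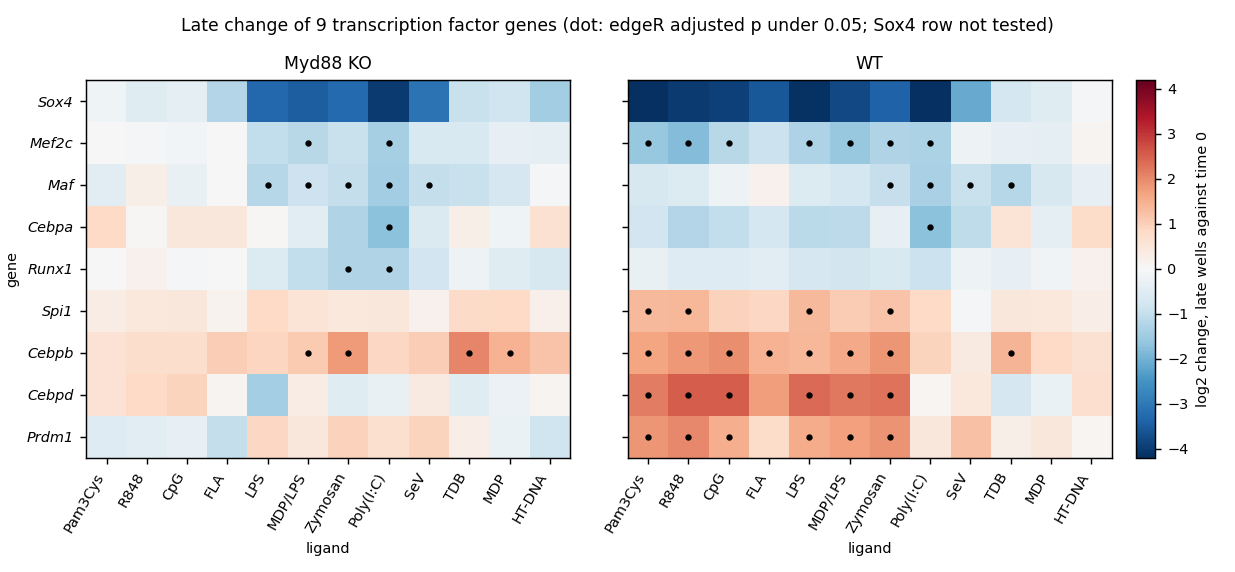
Log2 change of late wells (2.5, 3 and 4 h) against time 0 for 9 genes (rows) and 12 ligands (columns) in Myd88 KO (left) and WT (right), by colour from lower (blue) to higher (red). Dots mark an edgeR adjusted p under 0.05, and the Sox4 row carries no test; with Pam3Cys, R848 and CpG the KO panel is pale for Mef2c and Sox4 where the WT panel is blue.

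Before ligand the 9 genes did not differ detectably between genotypes: 0 of 9 passed by edgeR and 0 by DESeq2, where 0.275% of all genes were lower in KO and 0% higher. At an unadjusted p under 0.05 there were 0 of 9 (edgeR), where 2.26% of all genes passed. Sox4 had the widest gap, at 975 and 946 CPM in KO against 529 and 386 CPM in WT, or 1.05 (SE 0.58) higher in KO on the log2 scale, with an edgeR adjusted p of 1. Both KO plates were above both WT plates. Maf stood at 616 and 783 CPM in KO, below Sox4, and at 886 and 826 CPM in WT, above Sox4, and Mef2c stood at 249 and 237 CPM in KO and 240 and 207 CPM in WT. Cebpd was the lowest, at 21.5 and 14.0 CPM in KO and 20.8 and 27.1 CPM in WT. Prdm1 stood at 27.5 and 39.4 CPM in KO and 51.8 and 48.6 CPM in WT, and Cebpa at 73.9 and 53.6 CPM in KO and 48.4 and 44.8 CPM in WT. Spi1 stood at 88.6 and 70.3 CPM in KO and 98.1 and 93.4 CPM in WT, Runx1 at 85.4 and 126 CPM in KO and 139 and 118 CPM in WT, and Cebpb at 94.6 and 102 CPM in KO and 102 and 123 CPM in WT.

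The time 0 wells of Sox4 were not alike, and their level moved with the depth of the well. The 5 KO wells under 250000 counts held 114 to 350 CPM of Sox4 and the 19 deeper KO wells 542 to 1520 CPM. The 4 WT wells under 250000 counts held 0 to 551 CPM and the 20 deeper WT wells 168 to 769 CPM. The R848 series of KO plate 2 had the shallow time 0 well with 328 CPM, and the Pam3Cys series of WT plate 2 the one with 0 CPM. Spi1 and Prdm1 were also lower in shallow KO wells, Spi1 at 10.8 to 42.0 CPM under 250000 counts and 44.9 to 149 CPM above, Prdm1 at 0 to 21.6 CPM and 2.81 to 79.0 CPM. Maf, at 471 to 970 CPM in the shallow and 534 to 899 CPM in the deeper KO wells, overlapped between them. The part of depth in the results was not tested, and values without shallow wells are given beside the Sox4 results.

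**Figure D2:**
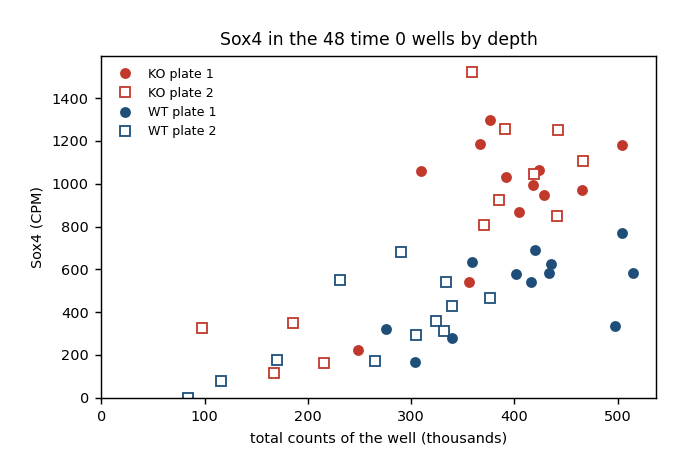
Sox4 level (CPM, vertical axis) against the total counts of the well (horizontal axis, in units of 1000 counts) in the 48 time 0 wells, by genotype (colour) and plate (filled or open). The KO wells under 250000 counts lie at 114 to 350 CPM, below the deeper KO wells at 542 to 1520 CPM.

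Sox4 spans bases 28948919 to 28953713 of chromosome 13 (mm10, minus strand). The 250 bases before its start in RefSeq (GRCm38.p6, chr13:28953700-28953949, minus strand) are shown because Sox4 had the lowest late levels relative to time 0. The capitals mark the one match found, the PU.1 core GAGGAA, which 23.3% of 32851 mouse promoters of the same length hold on either strand. The motifs GGGANTTCC (NF-κB), TTGCGNAA (C/EBP) and TGANTCA (AP-1) and the interferon-stimulated response element were also searched for on both strands and not found in it.
Sox4 promoter: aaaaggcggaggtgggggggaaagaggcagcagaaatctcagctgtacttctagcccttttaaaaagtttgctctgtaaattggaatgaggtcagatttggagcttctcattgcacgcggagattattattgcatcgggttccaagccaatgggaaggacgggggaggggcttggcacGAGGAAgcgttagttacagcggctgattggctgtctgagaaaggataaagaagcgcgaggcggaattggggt

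In WT, Sox4 was low in late wells with most ligands. It stood at 35.2 and 12.1 CPM with Pam3Cys, 31.6 and 19.1 CPM with R848, 26.7 and 26.0 CPM with CpG, 44.4 and 28.3 CPM with FLA, and 15.9 and 25.9 CPM with LPS, against 529 and 386 CPM at time 0. With MDP/LPS it was 32.3 and 20.3 CPM, with Zymosan 35.0 and 37.4 CPM, with Poly(I:C) 21.8 and 21.9 CPM, and with SeV 83.1 and 88.3 CPM. Every one of these plates was below both time 0 plates, and the log2 changes ran from -4.20 (SE 0.71) with Pam3Cys to -2.11 (SE 0.62) with SeV. The other three ligands left more: TDB 271 and 266 CPM, MDP 210 and 412 CPM, and HT-DNA 374 and 493 CPM. With MDP and HT-DNA the late plates overlapped time 0.

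In KO, late Sox4 levels were low with some of these ligands and not with others. They were 50.1 and 57.3 CPM with Poly(I:C), 67.3 and 78.8 CPM with MDP/LPS, 86.5 and 81.2 CPM with LPS, 94.7 and 78.9 CPM with Zymosan, and 78.8 and 107 CPM with SeV, against 975 and 946 CPM at time 0. Those log2 changes were -4.01 (SE 0.67), -3.47 (SE 0.67), -3.29 (SE 0.66), -3.28 (SE 0.65) and -3.10 (SE 0.64) in that order. With Pam3Cys, by contrast, Sox4 remained at 928 and 800 CPM in KO, and with CpG at 792 and 674 CPM, levels that were still below both time 0 plates. R848 left 1188 and 118 CPM and FLA 158 and 618 CPM, so for these ligands the KO plates did not agree. TDB left 502 and 485 CPM, MDP 547 and 501 CPM, and HT-DNA 226 and 410 CPM, each with both plates below both time 0 plates.

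The KO minus WT difference of the late Sox4 change, on the log2 scale, was 4.01 (SE 0.90) with Pam3Cys, 3.55 (SE 0.91) with CpG, 3.52 (SE 0.89) with R848 and 2.32 (SE 0.88) with FLA. It was 0.85 (SE 0.94) with LPS, 0.30 (SE 0.91) with MDP/LPS, 0.17 (SE 0.88) with Poly(I:C) and 0.13 (SE 0.87) with Zymosan. It was lower in KO with HT-DNA, at -1.40 (SE 0.83), and with SeV, at -0.99 (SE 0.86), and stood at -0.32 (SE 0.82) with MDP and -0.20 (SE 0.83) with TDB. Leaving out KO replicate 1 gave 1.16 for R848 and leaving out KO replicate 2 gave 4.28, and it was 4.36 without wells under 150000 counts, a depth that 0 of the 3 late R848 wells of KO plate 2 reached. For FLA the difference was 2.98 with KO replicate 1 left out, and 1.02 with KO replicate 2 left out. The Pam3Cys and CpG differences lay between 3.49 and 4.09 under each of these 3 exclusions. Without WT replicate 1 they were 4.70 and 3.39, and without WT replicate 2, whose own time 0 wells of both ligands were shallow, 3.62 and 3.69, and with the time 0 well of the same ligand label as baseline (the own time 0 well) they were 3.74 and 2.52.

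**Figure D3:**
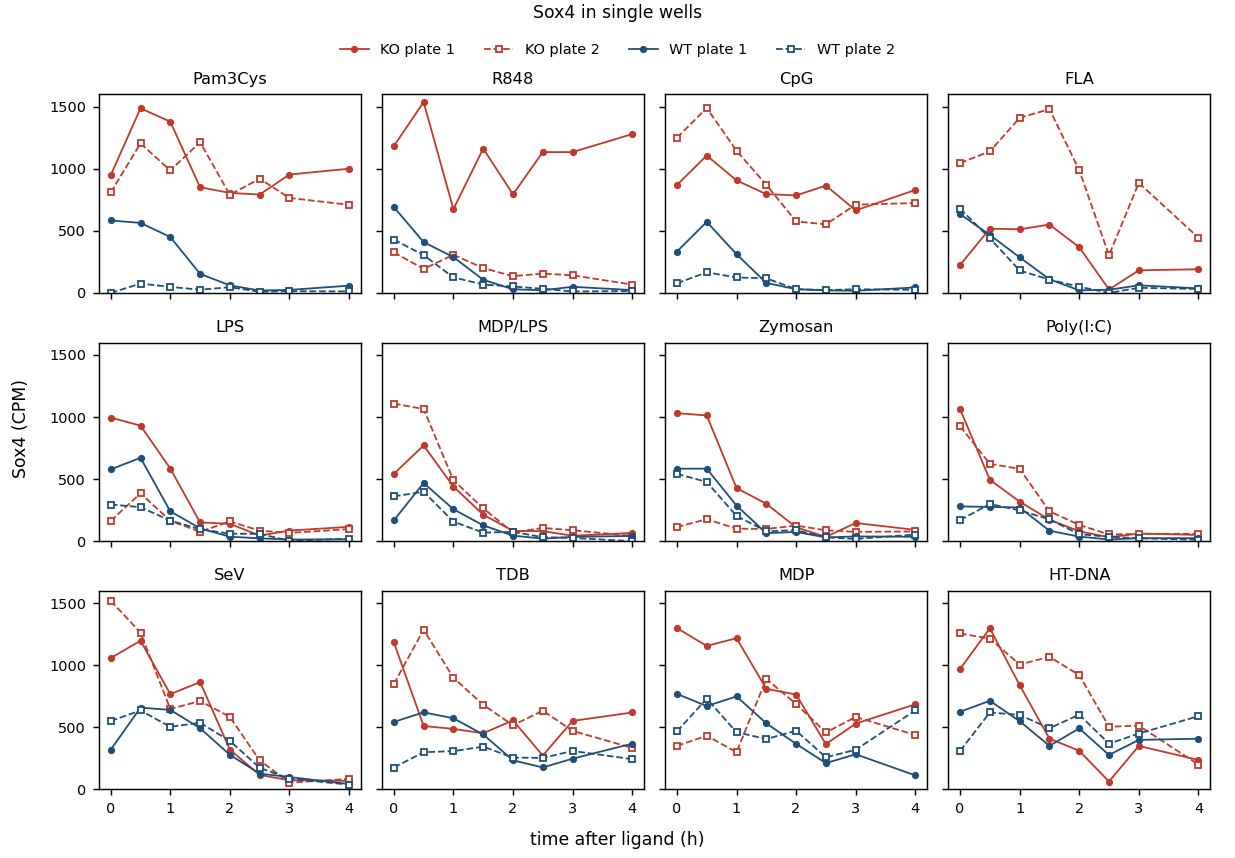
Sox4 level (CPM, vertical axis) in single wells against time after ligand (h, horizontal axis), in 12 panels by ligand, for KO (red) and WT (blue), plate 1 solid and plate 2 dashed. At 4 h both KO plates are at 41.7 to 115 CPM with LPS, MDP/LPS, Zymosan, Poly(I:C) and SeV, whereas with Pam3Cys they are at 1001 and 710 CPM.

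Middle wells of Sox4 were tested in the same fit. They share the time 0 sums with the late wells, and Sox4 was chosen with its response in these data known, so these calls are no independent support for the late pattern. Sox4 fell in middle wells with 4 ligands in KO: LPS (145 and 115 CPM, log2 -2.74, SE 0.66, edgeR adjusted p 0.00729), Poly(I:C) (131 and 187 CPM, log2 -2.61), Zymosan (190 and 116 CPM, log2 -2.51) and MDP/LPS (153 and 174 CPM, log2 -2.43). It fell in WT with those 4 and with Pam3Cys, R848, CpG and FLA, with log2 changes from -2.74 with CpG to -2.39 with Pam3Cys. SeV, which gave a low level late, gave 564 and 641 CPM in KO and 375 and 450 CPM in WT in middle wells, and neither change passed. Over the 9 genes, 6 of 108 pairs fell and 8 rose in KO middle wells (0.210% and 0.600% of all pairs), and 9 fell and 15 rose in WT (0.133% and 0.806% of all pairs). Sox4 was 4 of the 6 that fell in KO and 8 of the 9 in WT, and Maf was the others. Cebpb was 5 of the 8 that rose in KO and 6 of the 15 in WT. The shares that fell rest mostly on the chosen Sox4 and are no result about the 9 genes as a set. The KO minus WT difference of the middle change of Sox4 was 2.45 (SE 0.86) with FLA, 2.39 (SE 0.88) with CpG, 2.39 (SE 0.86) with Pam3Cys and 2.11 (SE 0.88) with R848. None of these 4 passed over all genes, and all 4 had an unadjusted p under 0.05, as 3.13% of all pairs did (edgeR). Without the filter on low counts all 4 passed, whereas by DESeq2 0 did. With wells as replicates those of CpG, FLA and Pam3Cys passed, but wells of 1 plate are not independent replicates of a genotype, and the genes called at time 0 then numbered 433 lower and 210 higher in KO, against 29 and 0 with plate sums. The R848 difference was 0.46 without KO replicate 1. Without either WT plate 0 of the middle changes of the 9 genes fell in WT, and with the time 0 well of the same ligand label as baseline 3 did. In KO the Sox4 calls were lost without either WT plate, that of MDP/LPS also without either KO plate and that of Zymosan without KO replicate 2. The change with LPS in KO was -2.735 without WT replicate 1 and -2.749 without WT replicate 2, near the -2.74 of the main fit. With the own time 0 well as baseline the KO call of Poly(I:C) was kept and the other 3 were lost.

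The time order was read from single wells. Both WT plates were under 50% of their plate's time 0 level and stayed there from 1 h with LPS and MDP/LPS, from 1.5 h with Pam3Cys, R848, CpG, FLA, Poly(I:C) and Zymosan, and from 2.5 h with SeV. Both KO plates did so from 1 h with Zymosan, from 1.5 h with LPS, MDP/LPS and Poly(I:C), from 2.5 h with SeV, and at 4 h with FLA and HT-DNA. In 7 of these series the own time 0 well was already under 50% of the plate's level. It was at 225 CPM for FLA on KO plate 1, at 114 CPM for Zymosan and 163 CPM for LPS on KO plate 2, at 168 CPM for MDP/LPS on WT plate 1, and at 77.8 CPM for CpG, 170 CPM for Poly(I:C) and 0 CPM for Pam3Cys on WT plate 2. For these ligands the time in that genotype rests on the other plate.

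Mef2c, a MADS-box factor that works with lineage factors in myeloid and lymphoid cells, was the tested gene that fell with most ligands in late WT wells. Its late levels in KO were 223 and 265 CPM with Pam3Cys, 204 and 245 CPM with R848, and 194 and 250 CPM with CpG, against 249 and 237 CPM at time 0. In WT they were 106 and 35.6 CPM with Pam3Cys, 59.9 and 53.9 CPM with R848, and 82.8 and 92.9 CPM with CpG, against 240 and 207 CPM at time 0. With these 3 ligands all WT plates were below both time 0 plates, whereas in KO plate 1 was and plate 2 was not. LPS left 75.7 and 125 CPM in KO and 90.4 and 53.9 CPM in WT, MDP/LPS 73.8 and 108 CPM in KO and 63.0 and 54.4 CPM in WT, and Poly(I:C) 78.9 and 88.1 CPM in KO and 76.3 and 77.1 CPM in WT.

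Mef2c fell late in KO with Poly(I:C) (log2 -1.39, SE 0.33, edgeR adjusted p 0.0018) and MDP/LPS (log2 -1.17, SE 0.34, adjusted p 0.0221). In WT it fell with R848 (log2 -1.83, SE 0.35, edgeR adjusted p 8.16e-05), MDP/LPS (-1.59), Pam3Cys (-1.58), Poly(I:C) (-1.34), LPS (-1.29), Zymosan (-1.25) and CpG (-1.15). LPS and Zymosan in KO gave -1.04 (SE 0.34) and -0.94 (SE 0.33), which did not pass. The difference between genotypes was 1.77 (SE 0.48, edgeR adjusted p 0.0521) with R848, 1.56 (SE 0.47, adjusted p 0.128) with Pam3Cys and 1.05 (SE 0.47) with CpG, and none of the 12 passed by edgeR. By DESeq2 those of R848 (1.86, adjusted p 0.00796) and Pam3Cys (1.59, adjusted p 0.0325) passed. The R848 difference also passed with another scaling (relative log expression, 1.86, edgeR adjusted p 0.034), with the plate term (1.77, adjusted p 0.0288), with wells as replicates (1.58) and without KO replicate 1 (2.02, adjusted p 0.0138), and was 1.52 (adjusted p 0.21) without the shallow KO replicate 2. The WT calls of the 7 ligands were lost without WT replicate 2, and all but that of Pam3Cys without WT replicate 1. With the own time 0 well as baseline those of CpG, LPS, MDP/LPS and Poly(I:C) were lost, as was the KO call of MDP/LPS. Without KO replicate 1 both KO calls were lost, and that of MDP/LPS also without either WT plate.

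Mef2c spans bases 83504034 to 83667080 of chromosome 13 (mm10, plus strand). No Mef2c change passed in middle wells, where Poly(I:C) in WT gave 110 and 106 CPM and a log2 change of -1.07 (SE 0.34). In single wells both WT plates were under 50% of time 0 and stayed there from 2 h with Poly(I:C), from 2.5 h with MDP/LPS, and from 3 h with CpG, LPS, Pam3Cys, R848 and Zymosan, later than Sox4 with each of these 7 ligands. Late WT levels with them were 4.57% to 7.92% of time 0 for Sox4 and 25.5% to 39.3% for Mef2c. A gene that falls less can reach 50% later, so these times do not order the onsets. The Sox4 times with MDP/LPS, CpG, Pam3Cys and Poly(I:C) also rest on a single plate. In KO both plates were under 50% for Mef2c and stayed there from 3 h with MDP/LPS and Poly(I:C), and from 4 h with LPS, SeV and TDB. Across the 74 groups of genotype, ligand and time, Mef2c and Sox4 had the highest correlation of any 2 of the 9 genes (Pearson's r 0.843, a description, since the groups share time 0 wells, plates and depth).

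**Figure D4:**
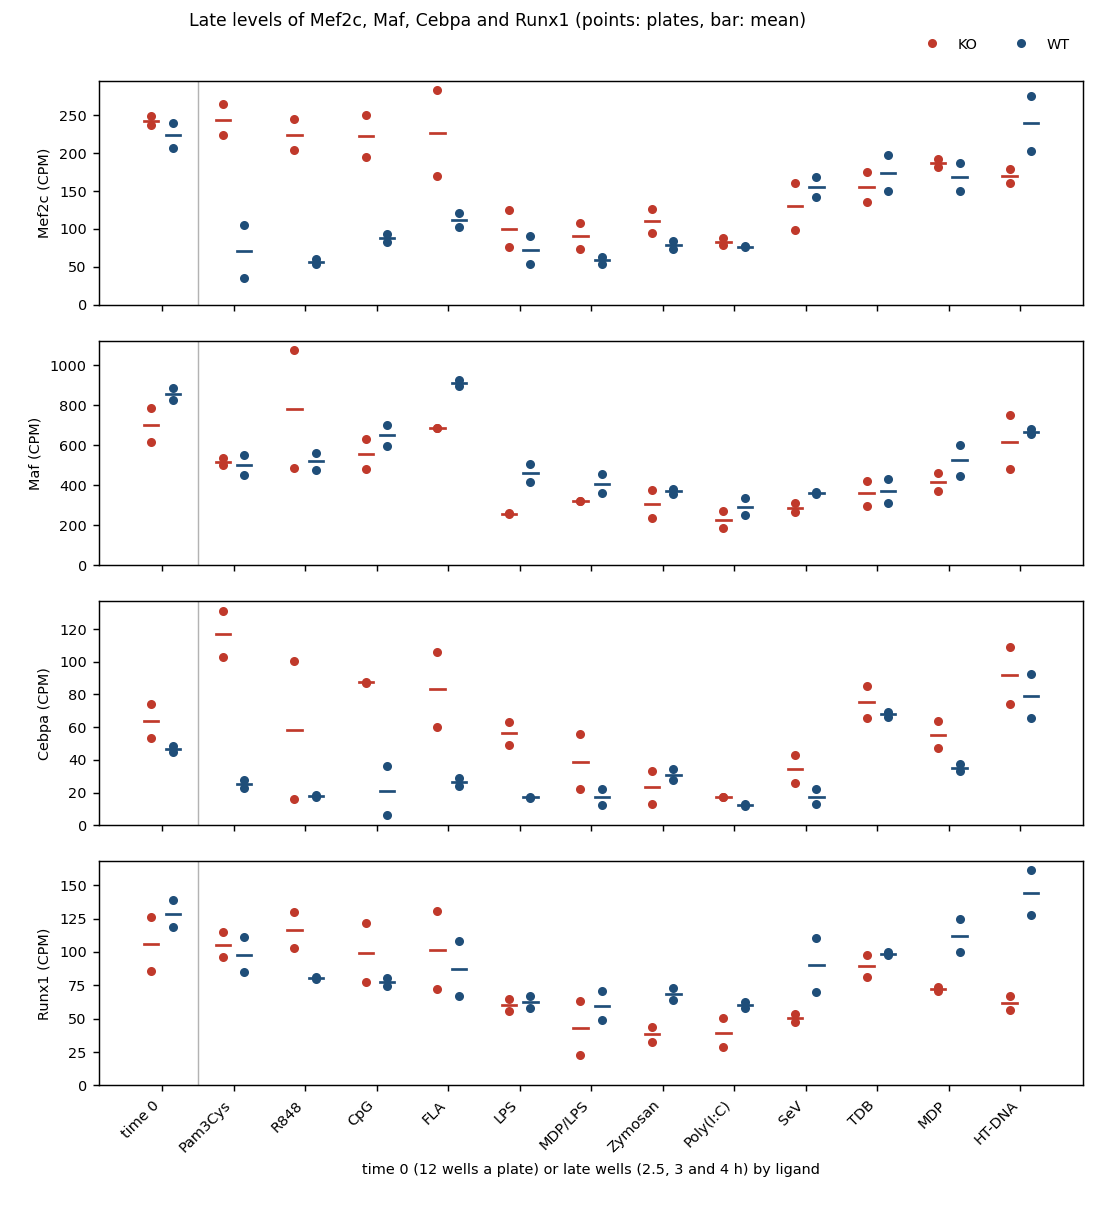
Levels (CPM, vertical axes) of Mef2c, Maf, Cebpa and Runx1 at time 0 and in late wells by ligand (horizontal axis), KO (red) left of WT (blue). Points are the 2 plates and bars their mean; with R848 the late Mef2c plates are at 204 and 245 CPM in KO and at 59.9 and 53.9 CPM in WT.

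Maf encodes c-Maf, a basic leucine zipper factor of resident and anti-inflammatory macrophages. It spans bases 115682942 to 115707794 of chromosome 8 (mm10, minus strand). In KO it stood at 184 and 269 CPM with Poly(I:C), 253 and 262 CPM with LPS, 319 and 322 CPM with MDP/LPS, 267 and 308 CPM with SeV and 237 and 375 CPM with Zymosan, against 616 and 783 CPM at time 0. It fell with each of these 5 ligands, most with Poly(I:C) (log2 -1.47, SE 0.26, edgeR adjusted p 7.53e-06) and least with MDP/LPS (log2 -0.88, SE 0.26, adjusted p 0.0238).

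In WT, Maf stood late at 334 and 251 CPM with Poly(I:C), 429 and 310 CPM with TDB, 381 and 357 CPM with Zymosan and 368 and 356 CPM with SeV, against 886 and 826 CPM at time 0. It fell with these 4 ligands, by 1.35 (SE 0.26), 1.19 (SE 0.26), 0.96 (SE 0.26) and 0.94 (SE 0.26) on the log2 scale, in that order. LPS gave 413 and 506 CPM and a log2 change of -0.57 (SE 0.26), and Pam3Cys 549 and 449 CPM and -0.68 (SE 0.26); neither passed, although all 4 plates were below time 0. The largest difference between genotypes was 0.82 (SE 0.36) with R848, and no difference passed. It rests on KO plate 2, at 1077 CPM, where KO plate 1 stood at 486 CPM. In middle wells Maf fell with Poly(I:C) in both genotypes, by 1.27 (SE 0.26) in KO and 1.22 (SE 0.26) in WT on the log2 scale, and with MDP/LPS in KO (-1.14, SE 0.27). The 4 late WT calls were lost without either WT plate, and that of Zymosan also with the own time 0 well as baseline. The late KO calls of LPS and Poly(I:C) held in every setting tried, whereas those of MDP/LPS, SeV and Zymosan were lost without either WT plate, that of MDP/LPS also without KO replicate 2, that of Zymosan without KO replicate 1 and that of SeV with the own time 0 well as baseline.

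Cebpa (mm10 chromosome 7, bases 35119293 to 35121928, plus strand) encodes the C/EBP factor of granulocyte and macrophage commitment. With Poly(I:C) it stood at 17.6 and 17.1 CPM in KO late wells, against 73.9 and 53.6 CPM at time 0, and at 12.9 and 11.6 CPM in WT late wells, against 48.4 and 44.8 CPM at time 0. It fell with this ligand by 1.72 (SE 0.51, edgeR adjusted p 0.0178) in KO and by 1.72 (SE 0.53, adjusted p 0.0311) in WT on the log2 scale. With LPS it stood at 63.4 and 49.1 CPM in KO and at 16.7 and 17.3 CPM in WT, and with Pam3Cys at 131 and 103 CPM in KO and 27.6 and 22.8 CPM in WT. Late WT plates were below both time 0 plates with every ligand other than HT-DNA and TDB, but the WT changes other than that of Poly(I:C) did not pass, with log2 changes of -1.23 (SE 0.52) with R848, -1.12 (SE 0.53) with LPS and -1.03 (SE 0.53) with CpG. The differences between genotypes were 1.63 (SE 0.69) with Pam3Cys and 1.50 (SE 0.71) with CpG, with an unadjusted p under 0.05, as 3.19% of all pairs had, and did not pass over all genes. The WT Poly(I:C) call was lost without either WT plate and the KO call without any 1 plate of either genotype, and both with the own time 0 well as baseline.

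Runx1 (mm10 chromosome 16, bases 92601466 to 92826149, minus strand) binds DNA with its partner Cbfb and is required for blood stem cell formation. It fell late in KO with Poly(I:C), to 28.8 and 50.5 CPM against 85.4 and 126 CPM at time 0 (log2 -1.28, SE 0.38, edgeR adjusted p 0.0184). It also fell in KO with Zymosan, to 44.1 and 32.4 CPM (log2 -1.27, SE 0.39, adjusted p 0.0346). In WT no ligand passed, with 57.9 and 62.3 CPM with Poly(I:C) (log2 -0.90, SE 0.37) against 139 and 118 CPM at time 0. The differences between genotypes with Poly(I:C) and Zymosan were -0.38 (SE 0.53) and -0.62 (SE 0.54), so a call in KO alone does not show that the genotypes differ. The Poly(I:C) call was lost without KO replicate 1 or either WT plate, and the Zymosan call without KO replicate 2, either WT plate or the filter on low counts. Both were lost with the own time 0 well as baseline.

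Among the pairs tested, Prdm1 was the gene with differences between genotypes that passed in the main edgeR fit. The late difference of Sox4 was not tested, and those of Mef2c with R848 and Cebpd with LPS passed in some other settings. Prdm1 spans bases 44437177 to 44528501 of chromosome 10 (mm10, minus strand). The 250 bases before its start in RefSeq (GRCm38.p6, chr10:44458749-44458998, minus strand) are shown because its response differed between genotypes. That start lies inside the annotated gene span, since the gene has more than 1 start. The capitals mark a PU.1 core (GAGGAA) 156 bases and an AP-1 motif (TGANTCA, held by 6.75% of the 32851 promoters) 48 bases before the start.
Prdm1 promoter: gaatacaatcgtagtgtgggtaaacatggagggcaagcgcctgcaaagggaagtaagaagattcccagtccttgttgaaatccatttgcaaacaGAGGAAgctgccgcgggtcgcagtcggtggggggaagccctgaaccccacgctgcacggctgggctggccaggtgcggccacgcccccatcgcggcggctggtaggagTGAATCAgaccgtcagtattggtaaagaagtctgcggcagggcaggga

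With Pam3Cys, late Prdm1 stood at 24.7 and 21.9 CPM in KO, against 27.5 and 39.4 CPM at time 0, and at 164 and 177 CPM in WT, against 51.8 and 48.6 CPM at time 0. With R848 it stood at 27.7 and 15.9 CPM in KO and at 175 and 190 CPM in WT. With both ligands the WT plates were above both time 0 plates, and no KO plate was. Pam3Cys gave a KO minus WT difference of the late change of -2.40 (SE 0.60, edgeR adjusted p 0.0248), and R848 one of -2.45 (SE 0.63, edgeR adjusted p 0.032). These 2 of 96 late pairs were the ones that passed, both lower in KO, where 0.129% of all pairs were lower and 0.0197% higher.

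Prdm1 also differed at earlier times. In early wells Pam3Cys gave 5.63 and 10.3 CPM in KO and 159 and 96.2 CPM in WT, a difference of the early change of -3.60 (SE 0.71, edgeR adjusted p 0.00707), the 1 of 108 early pairs that passed (0.0221% of all pairs were lower and 0.00158% higher). Both of these early KO levels rest on few counts. In middle wells R848 gave 17.7 and 5.04 CPM in KO and 196 and 265 CPM in WT, a difference of -3.48 (SE 0.70, adjusted p 0.00542). The R848 level on KO plate 2 rests on few counts. CpG gave 17.0 and 20.7 CPM in KO and 142 and 203 CPM in WT, a difference of -2.69 (SE 0.64, adjusted p 0.0272). These were the 2 of 108 middle pairs that passed (0.0426% of all pairs were lower and 0.00158% higher). FLA gave 9.65 and 31.9 CPM in KO and 150 and 190 CPM in WT, with a difference of -2.43 (SE 0.63) that did not pass.

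The 5 Prdm1 differences kept their sign in each setting tried and were not called in all of them. By DESeq2 all 5 passed. Without either WT plate none passed. Without KO replicate 2, the plate with the shallow R848 wells, the late difference was -2.06 for Pam3Cys (edgeR adjusted p 0.0836) and -2.01 for R848 (adjusted p 0.0811), and the middle ones -2.90 (adjusted p 0.0147) with R848 and -2.57 (adjusted p 0.0624) with CpG. Without wells under 150000 counts the late R848 difference was -2.26 (adjusted p 0.125) and the middle one -3.17 (adjusted p 0.0498). With the time 0 well of the same ligand label as baseline only the early one passed (-4.48, adjusted p 0.0372).

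Within each genotype, Prdm1 rose late in WT with CpG, LPS, MDP/LPS, Pam3Cys, R848 and Zymosan, by 1.51 to 2.00 on the log2 scale, and with none in KO. It rose in middle wells in KO with MDP/LPS (131 and 112 CPM, log2 1.98, SE 0.43, edgeR adjusted p 0.00124), Poly(I:C) (112 and 109 CPM, log2 1.70) and Zymosan (67.4 and 104 CPM, log2 1.48). In WT it rose in middle wells with 7 ligands, the 6 above and FLA, by 1.83 to 2.35. With LPS the middle levels were 95.7 and 43.0 CPM in KO and 218 and 227 CPM in WT, and with MDP/LPS 131 and 112 CPM in KO and 210 and 245 CPM in WT. The late and middle WT calls were lost without either WT plate, and the late ones of CpG, MDP/LPS and Zymosan and the middle ones of CpG and FLA also with the own time 0 well as baseline. The middle KO call of MDP/LPS held in every setting tried. Those of Poly(I:C) and Zymosan were lost without either WT plate or KO replicate 1, that of Zymosan also without KO replicate 2 or the filter on low counts, and that of Poly(I:C) with the own time 0 well as baseline. In early wells Prdm1 rose in WT with MDP/LPS (126 and 153 CPM, log2 1.59, SE 0.41, edgeR adjusted p 0.0341) and fell in KO with TDB, to 6.92 and 1.36 CPM (log2 -3.05, SE 0.66, adjusted p 0.0276). These TDB levels rest on few counts. The TDB call was lost without KO replicate 2 or either WT plate, with the own time 0 well as baseline and by DESeq2 (adjusted p 0.0685).

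**Figure D5:**
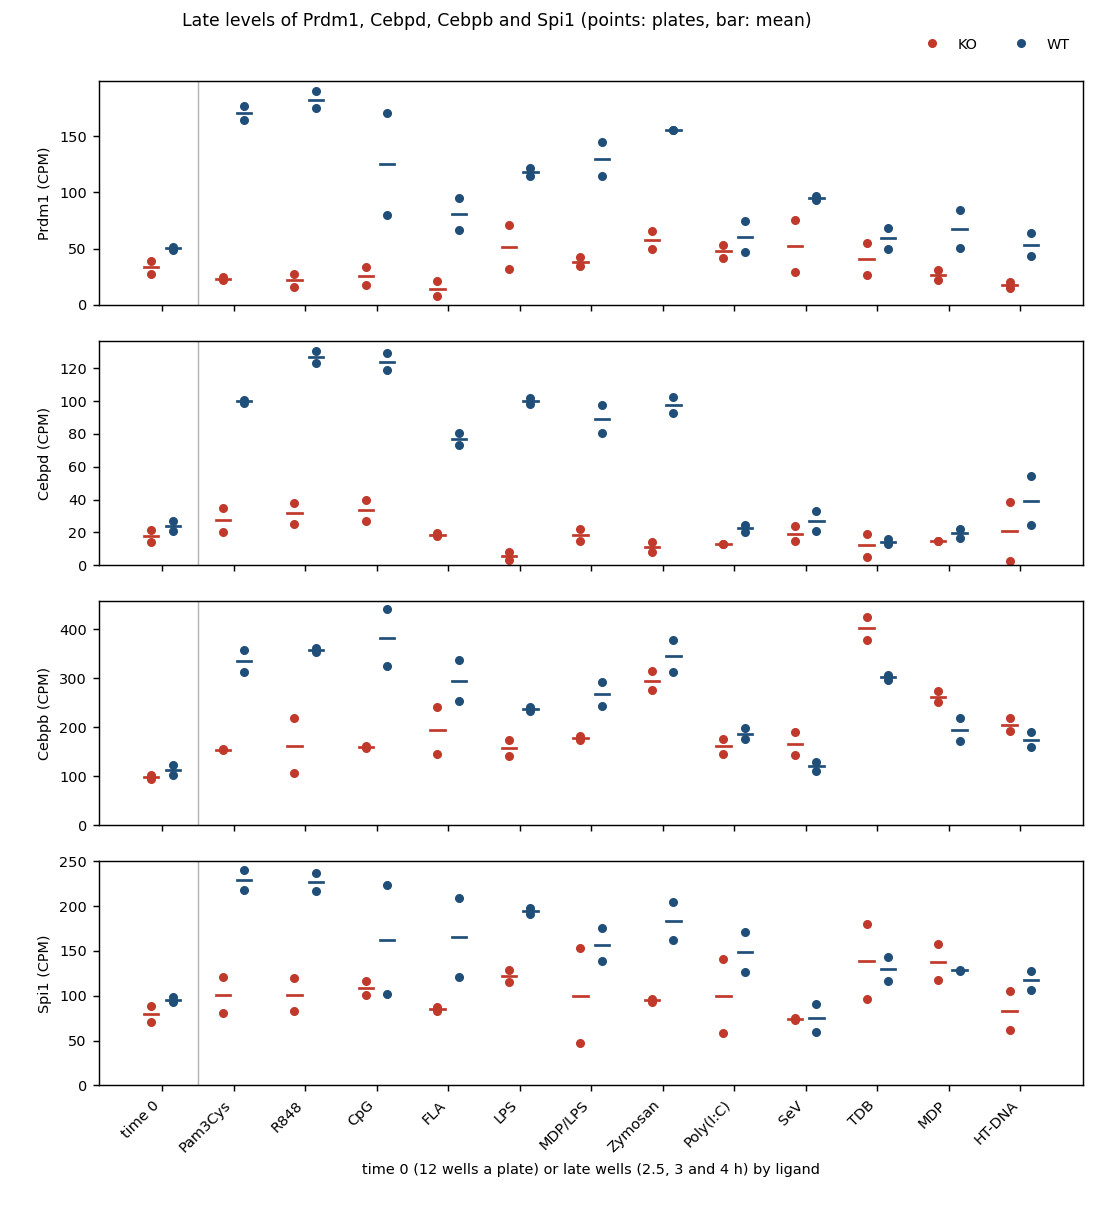
Levels (CPM, vertical axes) of Prdm1, Cebpd, Cebpb and Spi1 at time 0 and in late wells by ligand (horizontal axis), KO (red) left of WT (blue). Points are the 2 plates and bars their mean. Late Cebpd with LPS is at 7.73 and 3.38 CPM in KO, where it rests on few counts, and at 102 and 98.2 CPM in WT.

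Cebpd encodes the C/EBP factor that is low in resting cells and spans bases 15887286 to 15891031 of chromosome 16 (mm10, plus strand). It stood late at 34.8 and 20.2 CPM with Pam3Cys, 25.1 and 38.1 CPM with R848, 39.7 and 27.1 CPM with CpG and 7.73 and 3.38 CPM with LPS in KO, against 21.5 and 14.0 CPM at time 0. In WT it stood at 101 and 99.1 CPM with Pam3Cys, 123 and 130 CPM with R848, 119 and 129 CPM with CpG and 102 and 98.2 CPM with LPS, against 20.8 and 27.1 CPM at time 0. With these 4 ligands every late WT plate was above every late KO plate. Cebpd rose late in WT with CpG (log2 2.55, SE 0.52, edgeR adjusted p 0.000417), R848 (2.54), LPS (2.38), Zymosan (2.26), MDP/LPS (2.23) and Pam3Cys (2.15), and with none in KO. The difference between genotypes was -3.79 (SE 0.85, adjusted p 0.0575) with LPS and -2.76 (SE 0.76) with Zymosan, and no Cebpd difference passed. The late KO level with LPS rests on few counts. The late change was lower in KO at an unadjusted p under 0.05 (edgeR) with 7 of 12 ligands, where 3.19% of all pairs passed in either direction. The LPS difference passed with another scaling (-3.77, adjusted p 0.0483), with the plate term (-3.81, adjusted p 0.0405), without the filter on low counts (-3.82, adjusted p 0.0283) and without wells under 150000 counts (-3.82, adjusted p 0.0184), and was -2.67 (adjusted p 0.752) with the time 0 well of the same ligand label as baseline. In middle wells Cebpd rose in WT with MDP/LPS (93.2 and 74.9 CPM, log2 1.98) and LPS (80.0 and 82.3 CPM, log2 1.94). All these Cebpd calls were lost without either WT plate, and the late ones of CpG, Pam3Cys and Zymosan and both middle ones also with the own time 0 well as baseline.

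Cebpb (mm10 chromosome 2, bases 167688915 to 167690418, plus strand) was the member that rose in late wells in both genotypes. In KO it stood late at 426 and 378 CPM with TDB, 314 and 276 CPM with Zymosan, 274 and 252 CPM with MDP and 183 and 174 CPM with MDP/LPS, against 94.6 and 102 CPM at time 0. It rose with these 4, by 2.04 (SE 0.33, edgeR adjusted p 6.8e-06), 1.77, 1.45 and 1.10 on the log2 scale. In WT it rose with 8 ligands, by 1.95 (SE 0.33, adjusted p 1.08e-05) with CpG, 1.86 with Zymosan, 1.81 with R848, 1.67 with Pam3Cys, 1.59 with MDP/LPS, 1.47 with FLA, 1.44 with TDB and 1.39 with LPS. CpG gave 158 and 163 CPM in KO and 441 and 325 CPM in WT, and TDB 426 and 378 CPM in KO and 308 and 297 CPM in WT. In KO both late plates were above both time 0 plates with every ligand. The difference between genotypes was lowest with CpG, at -1.22 (SE 0.46), and none passed. It had an unadjusted p under 0.05 (edgeR) with 3 of 12 ligands, where 3.19% of all pairs passed in either direction. The KO calls of TDB and Zymosan held in every setting tried, and those of MDP and MDP/LPS were lost without either WT plate or KO replicate 1. The 8 WT calls were lost without WT replicate 1, and all but those of CpG and Zymosan without WT replicate 2. With the own time 0 well as baseline the KO call of MDP and the WT calls of MDP/LPS and TDB were lost. In middle wells Cebpb rose in WT with CpG, LPS, MDP/LPS, Pam3Cys, R848 and Zymosan. It rose in KO with 5 ligands, LPS, MDP/LPS, TDB and Zymosan among them. Most of these middle calls were lost when a plate was left out. With the own time 0 well as baseline those of CpG, MDP/LPS and Zymosan in WT and of LPS in KO were lost.

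Cebpb and Prdm1 had rises that passed in early wells. Cebpb rose early in KO with Zymosan (231 and 245 CPM, log2 1.30, SE 0.34, edgeR adjusted p 0.0475). In WT it rose early with CpG (250 and 369 CPM, log2 1.56, SE 0.33, adjusted p 0.00225), Pam3Cys (205 and 372 CPM, log2 1.41), MDP/LPS (271 and 232 CPM, log2 1.27) and LPS (213 and 286 CPM, log2 1.26). Over the 9 genes, 1 of 108 early pairs fell and 1 rose in KO (0.0197% and 0.164% of all pairs), and 0 fell and 5 rose in WT (0.00237% and 0.275% of all pairs). In WT 2 pairs were lower at an unadjusted p under 0.05 (edgeR), where 2.43% of all pairs passed in either direction. By DESeq2 0 pairs fell and 8 rose in WT, where 0.0237% of all pairs fell and 0.372% rose. The early WT calls numbered 0 without either WT plate, 12 without either KO plate and 2 with the own time 0 well as baseline. The early KO call of Zymosan was lost without KO replicate 2 or either WT plate, without wells under 150000 counts and with the own time 0 well as baseline.

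Spi1 (mm10 chromosome 2, bases 91082390 to 91115756, plus strand) rose in WT, with differences between genotypes that did not pass. Its late levels in KO were 121 and 80.7 CPM with Pam3Cys, 120 and 82.6 CPM with R848, 128 and 115 CPM with LPS and 96.5 and 93.1 CPM with Zymosan, against 88.6 and 70.3 CPM at time 0. In WT they were 240 and 217 CPM with Pam3Cys, 217 and 237 CPM with R848, 198 and 191 CPM with LPS and 162 and 205 CPM with Zymosan, against 98.1 and 93.4 CPM at time 0. It rose in WT with R848 (log2 1.39, SE 0.38, edgeR adjusted p 0.019), Pam3Cys (1.35), LPS (1.35) and Zymosan (1.18), and with none in KO, where the highest late change was 0.84 (SE 0.39) with LPS. The difference between genotypes was -1.04 (SE 0.54) with Pam3Cys and -0.94 (SE 0.54) with R848. None of the 12 had an unadjusted p under 0.05 (edgeR), where 3.19% of all pairs did. The Zymosan call was lost with another scaling, without the ribosomal transcript Rn45s and without the filter on low counts, and all 4 calls without either WT plate or with the time 0 well of the same ligand label as baseline.

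Other genes of the lineage network were read from lists of known roles. The lists were also chosen with earlier results of these data known, so their shares beside all pairs are a description. Of 30 further macrophage and myeloid lineage factors 27 were tested. Of their 324 late pairs, 11 fell and 15 rose in KO (3.40% and 4.63%), and 28 fell and 32 rose in WT (8.64% and 9.88%), where 0.593% of all pairs fell and 1.58% rose in KO and 0.688% fell and 2.09% rose in WT. The list's median log2 change over a ligand lay between -0.12 and 0.28 in KO and between -0.05 and 0.46 in WT, where the median of all genes lay between -0.12 and -0.01 in KO and between -0.13 and 0.00 in WT. Among those that fell was the ETS factor Fli1, by 1.31 (SE 0.32) in KO and 1.66 (SE 0.32) in WT on the log2 scale with LPS. Among those that rose was Ikzf1, the lymphoid and myeloid factor Ikaros, by 1.58 (SE 0.42) in KO and 2.00 (SE 0.41) in WT with LPS. The differences of the late change between genotypes that passed were those of Nfe2l2, the oxidative stress factor NRF2, with Pam3Cys (-1.63, SE 0.40, edgeR adjusted p 0.0177) and of the RNA-binding protein Zfp36l2 with R848 (1.87, SE 0.49, adjusted p 0.043).

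Of 23 paralogues and partners of the 9 genes 13 were tested. Of their 156 late pairs 3 fell and 0 rose in KO (1.92% and 0%), where 0.593% of all pairs fell and 1.58% rose. They were Mafg with LPS and Poly(I:C) and Cebpz with Poly(I:C). In WT 1 fell, Cebpg with Poly(I:C), and 0 rose (0.641% and 0%), where 0.688% of all pairs fell and 2.09% rose. Of 15 stem and progenitor factors 5 were tested, and all the late changes that passed were those of Lyl1, a basic helix-loop-helix factor of blood stem cells. It fell late with 2 ligands in KO, MDP/LPS (log2 -2.63, SE 0.63) and Poly(I:C) (log2 -2.05, SE 0.55), and with 6 in WT, most with LPS (log2 -3.46, SE 0.69, edgeR adjusted p 8.34e-05). These were 2 of 60 late pairs of the list in KO (3.33%) and 6 of 60 in WT (10%). Of all pairs, 0.593% fell in KO and 0.688% in WT. In middle wells Tcf4, an E protein, fell with LPS, MDP/LPS, Poly(I:C) and Zymosan in KO and with Poly(I:C) in WT, and Tal1, a partner of E proteins, fell with Zymosan in KO (log2 -2.75, SE 0.78, edgeR adjusted p 0.0395). Lyl1 fell in WT middle wells with LPS (log2 -2.43, SE 0.65), MDP/LPS (log2 -3.61, SE 0.76) and Zymosan (log2 -2.42, SE 0.64). The middle pairs of the list that fell were 5 of 60 in KO (8.33%) and 4 of 60 in WT (6.67%). Of all middle pairs, 0.210% fell in KO and 0.133% in WT.

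Genes that PU.1 or C/EBP factors are known to drive in macrophages were read in the same way. Of 288 late pairs of 24 such genes, 0 fell and 28 rose in KO (0% and 9.72%), where 0.593% of all pairs fell and 1.58% rose. In WT 2 fell and 40 rose (0.694% and 13.9%), where 0.688% of all pairs fell and 2.09% rose. The share that fell in WT was thus near that of all pairs. Examples are Cd14, the LPS co-receptor, which rose with Poly(I:C) by 1.76 (SE 0.24) in KO and 1.86 (SE 0.24) in WT on the log2 scale, and Il1rn, the interleukin-1 receptor antagonist, which rose with LPS by 2.52 (SE 0.37) in KO and 3.24 (SE 0.36) in WT. Before ligand Il1rn was lower in KO (log2 -1.53, edgeR adjusted p 0.0123). In middle wells 2 of the 288 pairs fell and 8 rose in KO (0.694% and 2.78%), where 0.210% of all pairs fell and 0.600% rose. In WT middle wells 0 fell and 12 rose (0% and 4.17%), where 0.133% of all pairs fell and 0.806% rose. The differences of the late change between genotypes that passed, 6 in number and all lower in KO, were those of Cybb with CpG, Pam3Cys and R848, of Cd14 with Pam3Cys and R848, and of Il1rn with R848.

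The genes most like each of the 9 were sought among 7480 genes over the same 74 groups, by Pearson's correlation of log2 levels, as a description. Sox4 was most like Plekho1 (0.93), Tecpr1 (0.919) and 5430435G22Rik (0.915), and Mef2c most like Nceh1 (0.859), Gab3 (0.849) and Snx30 (0.848). Prdm1 was most like Il1b (0.897), Nlrp3 (0.894) and Tnip3 (0.892), genes of the inflammatory response. Cebpa had Sox4 itself (0.776) in second place after Usp2 (0.777), Cebpd was most like Foxp1 (0.808), Cebpb most like Pde4b (0.780), Spi1 most like Gpd2 (0.818), Runx1 most like Slc6a6 (0.801) and Maf most like Cep290, at a lower value (0.641).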

How the data were processed

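Macrophages were profiled by 3′ digital gene expression (modified SCRB-Seq), per the labels' protocols. The deposited values are whole-number counts for each gene in each well. The submitters' processing notes name BWA and mm10, but which BWA version and which counting program the authors used is not given in the sources used here. Positions of genes come from GENCODE for mm10 and promoters from RefSeq. No column belonged to other samples.

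Plate totals were 32320373 and 29737092 counts in KO and 37323548 and 31280223 in WT. Wells were summed by plate into 148 sums of 74 groups. In R 4.3.3, edgeR 4.0.16 (filterByExpr with a minimum count of 10, TMM, robust quasi-likelihood fit of all groups) tested 10562 genes, with Benjamini-Hochberg adjustment within each comparison and ligand and a threshold of 0.05. The fit was tested on simulated data, where most of the changes put in were not called, so a change that did not pass is not shown to be missing. Alternatives were DESeq2 1.42.0, other size factors, no filter on low counts, wells as replicates, a plate term, no wells under 150000 counts, no Rn45s, the time 0 well of the same ligand label as baseline, and each plate left out. Named genes are the 9, the 3 most like each, and up to 4 of each list with the smallest p among those that passed, of which 1 is not reported here. The 9 genes and the lists were chosen with earlier results of these data known. Counting cannot separate genes with shared 3′ ends.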

Additional observations from a re-analysis of the deposited data

Results flagged for a closer look

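The response of Prdm1 differed between the genotypes by the test of the difference itself in 5 comparisons, each lower in KO. With Pam3Cys the KO minus WT difference was -3.60 (SE 0.71) for the early change and -2.40 (SE 0.60) for the late change. With R848 it was -3.48 (SE 0.70) for the middle change and -2.45 (SE 0.63) for the late change, and with CpG -2.69 (SE 0.64) for the middle change. Both KO plates were below both WT plates in level in each of these comparisons, but the same order already held before ligand. The order of levels therefore gives no information on the difference in the change. The early KO levels with Pam3Cys and the middle R848 level of KO plate 2 rest on few counts.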

How the results depend on the processing

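Of 100 named changes and differences that passed, DESeq2 left 99 past the threshold, relative log expression size factors 98, no filter on low counts 97, leaving out Rn45s 99, leaving out wells under 150000 counts 97, and wells as replicates and the plate term all 100. The time 0 well of the same ligand label as baseline left 48, leaving out a WT plate 12 or 13, and leaving out a KO plate 89 or 86. Relative log expression moved the median log2 change of all genes by -0.050 to 0.139 over 109 comparisons. The cause of the changes below was not tested.

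With wells as replicates, members at time 0 were lower in 2 cases and higher in 1, where 4.56% of all genes were lower and 2.21% higher. Early pairs then numbered 11 that rose and 1 that fell in WT (0.604% and 0.0237% of all pairs) and 3 and 2 in KO (0.401% and 0.112%). In WT 15 middle pairs fell (0.397% of all pairs) and 24 late pairs fell (2.85%). In KO 17 late pairs fell and 13 rose (3.05% and 3.7% of all pairs). Late differences numbered 8 lower and 3 higher in KO (0.858% and 0.335% of all pairs), and 3 middle differences were higher (0.0114%). With the time 0 well of the same ligand label as baseline, 2 early pairs rose in WT (0.179% of all pairs). In KO 0 early pairs passed either way (0.0318% of all pairs fell and 0.141% rose). Middle pairs numbered 3 that fell and 8 that rose in WT (0.0713% and 0.521% of all pairs) and 3 that fell in KO (0.133%). Late pairs numbered 7 that fell and 13 that rose in WT (0.342% and 1.59%) and 5 that fell in KO (0.355%). With this baseline 0 middle and 0 late differences were lower (0.0186% and 0.0457% of all pairs). By DESeq2, 8 early pairs rose in WT and 2 in KO (0.372% and 0.292% of all pairs), and 2 late differences were higher (0.0876%). Without wells under 150000 counts, 2 early pairs fell and 2 rose in KO (0.0371% and 0.18% of all pairs) and 7 late pairs rose in KO (1.74%). Without the filter on low counts 4 middle differences were higher (0.0129% of all pairs), and with relative log expression 1 late difference was (0.0237%).

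Plate numbers did not pair the samples: deviations of a plate had a median correlation of 0.0198 between groups in KO and 0.0142 in WT. With the replicate block (plate within genotype) 2 early pairs fell in KO (0.026% of all pairs) and 1 late difference was higher (0.0252%), and no call of the main fit was lost.

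Leaving out 1 plate in turn, early pairs ranged from 0 to 2 that fell and 0 to 2 that rose in KO, and from 0 to 1 and 0 to 12 in WT. Middle pairs ranged from 1 to 8 that fell and 5 to 6 that rose in KO, and from 0 to 15 and 0 to 22 in WT. Late pairs ranged from 3 to 8 that fell and 2 to 6 that rose in KO, and from 0 to 17 and 0 to 30 in WT. Differences that were lower ranged from 0 to 3 early, 0 to 4 middle and 0 to 3 late, and late ones that were higher from 0 to 2.

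Late Sox4 values that turned sign were those of R848 in KO, at 0.303 without wells under 150000 counts and from -2.877 to 0.274 with 1 plate left out, and in WT those of HT-DNA, from -0.465 to 0.312, and MDP, from -1.262 to 0.064, with 1 plate left out. The KO minus WT difference turned to 0.375 (MDP), -0.207 (MDP/LPS) and -0.806 (Poly(I:C)) with the time 0 well of the same ligand label as baseline, and ranged from -0.908 to 0.409 (MDP) and from -0.090 to 0.391 (Zymosan) with 1 plate left out. With the same-label time 0 well as baseline, late Sox4 changes that moved by more than their SE were those of LPS (-2.560), Zymosan (-2.492) and FLA (-0.613) in KO and of Poly(I:C) (-3.183), CpG (-2.982) and MDP/LPS (-2.977) in WT, as did the differences of FLA (3.402), CpG (2.516) and Zymosan (1.195). Sums of few counts limit what can be called.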
